A study of Mus musculus with 12 samples.

Results

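The 39 protein-coding Hox genes of the 4 mouse clusters were followed across 12 RNA sequencing libraries of MOC2, a line grown from a mouse squamous carcinoma of the mouth. They were taken by symbol, as every protein-coding row named Hoxa, Hoxb, Hoxc or Hoxd plus a number, among the 55421 genes of the deposited count table: 11 in Hoxa, 10 in Hoxb, 9 in Hoxc and 9 in Hoxd. The family was selected on measured values: it was chosen because Hoxb7 and Hoxb9 differed strongly between the EV labels of these same libraries, so its differences between EV labels are given below as descriptions, without a test. EVs are extracellular vesicles, membrane particles that cells shed. Cells of the derivative line MOC2-25 carried the label EV-proficient and cells of MOC2-27 the label EV-deficient. Groups were taken from the sample titles and treatment labels, since the shared growth and treatment protocols describe paclitaxel for every sample and do not mention DMSO. Each line was sampled as a control with DMSO as its treatment label, and with paclitaxel, a microtubule-stabilising drug used here to induce senescence at 600 nM for 48 h, which gave 4 groups of 3 libraries. All groups shared the growth medium with serum, hydrocortisone, cholera toxin, transferrin, insulin, triiodothyronine and epidermal growth factor. The labels name no gene behind the EV deficiency, so that no targeted gene could be checked, and each EV label is a single derivative line, so that a difference between EV labels and a difference between lines cannot be told apart. The labels do not say whether replicates came from separate cultures, and the p-values measure the spread between these libraries only.

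Hox genes encode homeodomain transcription factors that give cells their position along the body axis. Within a cluster, genes with low paralog numbers (anterior) lie at the 3′ end and are active toward the head, and genes with high numbers (posterior) lie at the 5′ end and are active toward the tail. The active stretch of a cluster is held by Trithorax-group proteins and the silent stretch by Polycomb-group proteins, and Hox proteins bind DNA together with cofactors of the PBX and MEIS families. Epithelial tumour lines often keep or alter the Hox code of the tissue they came from.

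The libraries did not group by EV label in a single way, and this touches every result on the Hoxb cluster. Library totals ran from 23263472 to 62955757 counts. On the second principal component of all tested genes, with 16.4% of the variance, the libraries labelled EV-proficient DMSO (27.2 to 36.5) lay with those labelled EV-deficient paclitaxel (34.2 to 43.5), and those labelled EV-deficient DMSO (-24.7 to -20.6) lay on the side of those labelled EV-proficient paclitaxel (-64.6 to -37.9). A row that the authors added to the table for a dngfr sequence shared this crossing. Its level was 5.72, 9.07 and 12.2 CPM (counts scaled to library size, after trimmed-mean scaling) in the EV-proficient DMSO libraries and 10.7, 9.62 and 12.4 CPM in the EV-deficient paclitaxel libraries. It was 1.89, 2.00 and 2.54 CPM in the EV-deficient DMSO libraries and 2.47, 3.50 and 3.76 CPM in the EV-proficient paclitaxel libraries. The 6 libraries of the first pair of groups thus lay above the 6 of the second pair, across both EV labels and both treatments. An exchange of EV labels among the libraries of 1 treatment, and drug responses of opposite sign in the 2 lines, cannot be told apart from these counts; the groups below are named as labelled. Of 10 squamous epithelial markers 8 passed the low-count filter. Their sum was 5243 to 6549 CPM in the DMSO libraries, where Krt8 and Krt18 gave the most, and 3215 to 4115 CPM in the paclitaxel libraries. In EV-deficient paclitaxel the marker Cdh1 (mean 784 CPM) lay above Krt18 (mean 717 CPM). The basal markers Krt5 (at most 0.101 CPM as a group mean) and Trp63 (at most 0.142) were near 0, while Krt14, Krt17 and Krt6a were detected in all 4 groups, with highest group means of 681, 360 and 318 CPM in EV-deficient DMSO. The simple-epithelial keratin Krt8 had group means from 895 to 2196 CPM. With paclitaxel under the EV-deficient label Krt6a fell by 6.98 log2 (edgeR adjusted p = 3.0e-20), Krt14 by 3.09 (edgeR adjusted p = 3.3e-18) and Krt17 by 1.29 (edgeR adjusted p = 5.2e-12). Under the EV-proficient label Krt6a fell by 1.44 (edgeR adjusted p = 3.9e-11), Krt17 rose by 0.35 (edgeR adjusted p = 4.3e-04) and the change of Krt14 did not pass the test (edgeR adjusted p = 0.99). Epcam went against the sum and rose under both labels, by 1.00 (edgeR adjusted p = 4.3e-09) under the EV-proficient and 0.29 (edgeR adjusted p = 0.0081) under the EV-deficient label. Summed markers of fibroblasts (6 genes, 5 tested; 1.65 to 8.38 CPM), endothelium (4 genes, 3 tested; 1.77 to 4.35) and immune cells (7 genes, 2 tested; 6.62 to 39.9) were low, and each sum was higher in the paclitaxel than in the DMSO libraries. The immune sum was mostly the macrophage and lysosome marker Cd68 (group means of 6.47 and 7.92 CPM in DMSO and 30.03 and 29.95 CPM in paclitaxel), with the T cell marker Cd3e at most at 0.0146 CPM as a group mean; the markers' part in the Hox results was not tested.

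Of the 39 genes, 20 passed the low-count filter, 9 in Hoxa, 9 in Hoxb, Hoxc6 and Hoxd8. Another 14 had some counts but at most 18 in a library, and 5 (Hoxa11, Hoxc12, Hoxd1, Hoxd3 and Hoxd9) had 0 counts in all 12 libraries, where 3 counts correspond to 0.0492 to 0.121 CPM. The low-count genes were mostly those of Hoxc and Hoxd, so that transcripts of Hoxa, Hoxb and Hoxd8 made up nearly all Hox counts. In GRCm38 coordinates of the GENCODE M21 annotation, Hoxa spans chr6:52155590-52260880 (105.3 kb, minus strand), between Skap2 and Evx1. Hoxb spans chr11:96194316-96368256 (173.9 kb, plus strand), between Ttll6 and Skap1, with Hoxb13 set off by 74.0 kb from Hoxb9 while Hoxb9 and Hoxb8 lie 5.3 kb apart. Hoxc spans chr15:102921103-103036852 (115.8 kb) and Hoxd chr2:74668310-74765142 (96.8 kb), both on the plus strand.

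**Figure D1:**
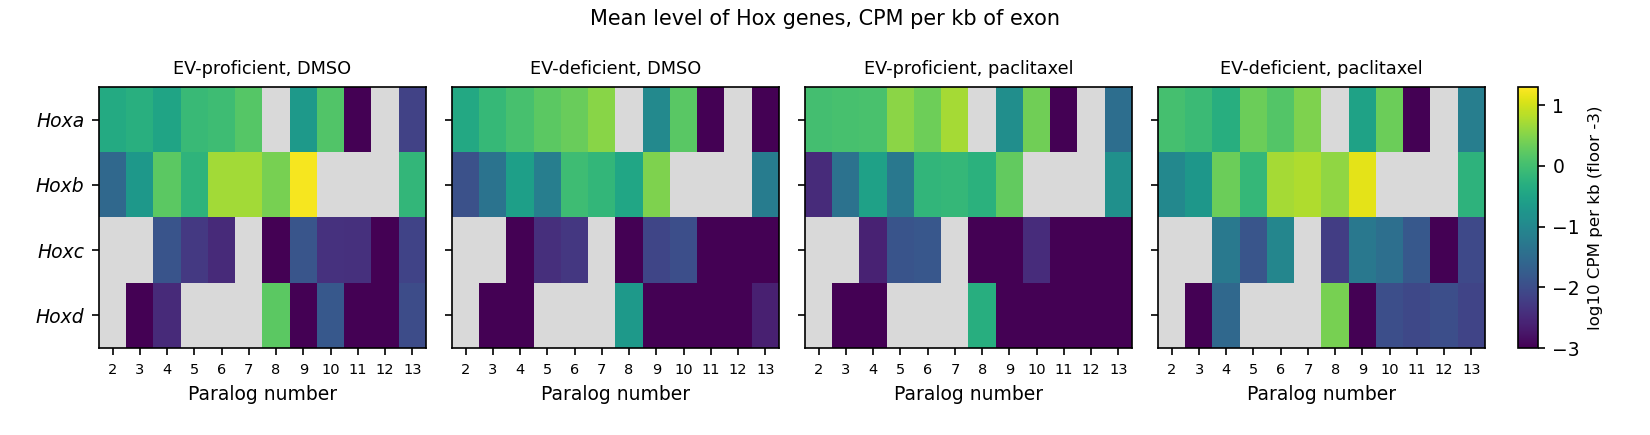
Mean level of the Hox genes with paralog numbers from 2 to 13 in the 4 groups (n = 3 libraries each), as log10 of CPM per kb of annotated exon, by cluster (rows) and paralog number (columns). Grey marks positions without a gene; the Hoxa row stayed filled up to paralog 10 in all groups, while the Hoxb row was bright in the EV-proficient DMSO and EV-deficient paclitaxel panels and dim in the other panels.

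The windows just before the start sites of 4 genes that stand for the patterns below are shown, since genes of a cluster that move together invite a look at what their promoters hold: Hoxb8 and Hoxb4 from the Hoxb cluster, Hoxd8 from another chromosome with the same pattern, and Hoxa5 from the cluster that moved differently. They are the 250 bases upstream of the start in RefSeq (build GRCm38.p6), 5′ to 3′ on the gene's strand. They lie at chr11:96281655-96281904 (plus strand) for Hoxb8, chr11:96318017-96318266 (plus) for Hoxb4, chr2:74704365-74704614 (plus) for Hoxd8 and chr6:52204588-52204837 (minus) for Hoxa5. Capitals mark matches, on either strand, to the CCAAT box, to TATAAA, to the GC box GGGCGG and to TGATNNAT, a form of the site bound by HOX and PBX proteins together.
Hoxb8: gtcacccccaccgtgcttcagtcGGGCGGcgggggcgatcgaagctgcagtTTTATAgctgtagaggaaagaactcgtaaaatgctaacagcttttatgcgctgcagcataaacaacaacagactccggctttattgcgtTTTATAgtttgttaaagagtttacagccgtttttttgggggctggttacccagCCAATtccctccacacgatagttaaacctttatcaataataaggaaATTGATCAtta
Hoxb4: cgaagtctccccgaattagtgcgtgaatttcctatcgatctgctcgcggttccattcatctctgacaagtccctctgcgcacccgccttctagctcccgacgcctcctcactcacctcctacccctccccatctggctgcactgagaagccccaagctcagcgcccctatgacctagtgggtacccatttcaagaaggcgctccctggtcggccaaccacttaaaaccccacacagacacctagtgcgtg
Hoxd8: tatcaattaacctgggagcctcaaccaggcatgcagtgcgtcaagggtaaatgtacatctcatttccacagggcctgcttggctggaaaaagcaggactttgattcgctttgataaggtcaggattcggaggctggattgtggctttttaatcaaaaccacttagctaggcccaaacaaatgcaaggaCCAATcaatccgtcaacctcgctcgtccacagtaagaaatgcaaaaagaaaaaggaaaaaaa
Hoxa5: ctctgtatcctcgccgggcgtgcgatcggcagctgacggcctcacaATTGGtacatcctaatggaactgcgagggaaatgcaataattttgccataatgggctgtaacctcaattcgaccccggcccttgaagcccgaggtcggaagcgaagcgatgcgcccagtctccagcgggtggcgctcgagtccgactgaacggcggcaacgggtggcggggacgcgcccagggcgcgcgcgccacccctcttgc

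The Hoxb8 window held all 4 motifs, the Hoxd8 and Hoxa5 windows a CCAAT box only, and the Hoxb4 window none, so that the Hoxb genes shown and Hoxd8 shared no single one of these words. Of the 39 genes, 22 had an entry in the RefSeq promoter table; Hoxb7 and Hoxb9 were not among them. A CCAAT box lay in 13 of these 22 windows and in 33.8% of 32851 windows of the same length across the genome. TATAAA lay in 3 of 22 (12.4% of all windows), GGGCGG in 9 of 22 (32.7%) and TGATNNAT in 3 of 22 (7.68%). The Hox windows had a median of 12 CpG dinucleotides against 6 over all windows, and a median GC content of 56.8% against 52.4%. Some Hox windows overlapped annotated exons, such as those of Hoxa3, Hoxa6 and Hoxa7, which overlapped the gene's own exons. The windows printed above held none, and exons in the other windows of the genome were not looked up. A match of letters is a description and does not show that a factor binds there.

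The Hoxb genes, the more posterior of which mark the trunk and tail, had the widest range of summed levels across groups in CPM of the 4 clusters. The summed level of the cluster was 71.4, 83.4 and 82.6 CPM in the EV-proficient DMSO libraries and 74.2, 77.8 and 70.0 CPM in the EV-deficient paclitaxel libraries. It was 12.3, 13.2 and 12.1 CPM in the EV-deficient DMSO libraries and 10.1, 9.79 and 10.6 CPM in the EV-proficient paclitaxel libraries. The first pair of groups and the second pair did not overlap. In bulk RNA, fewer cells with these transcripts and less RNA per cell cannot be told apart.

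**Figure D2:**
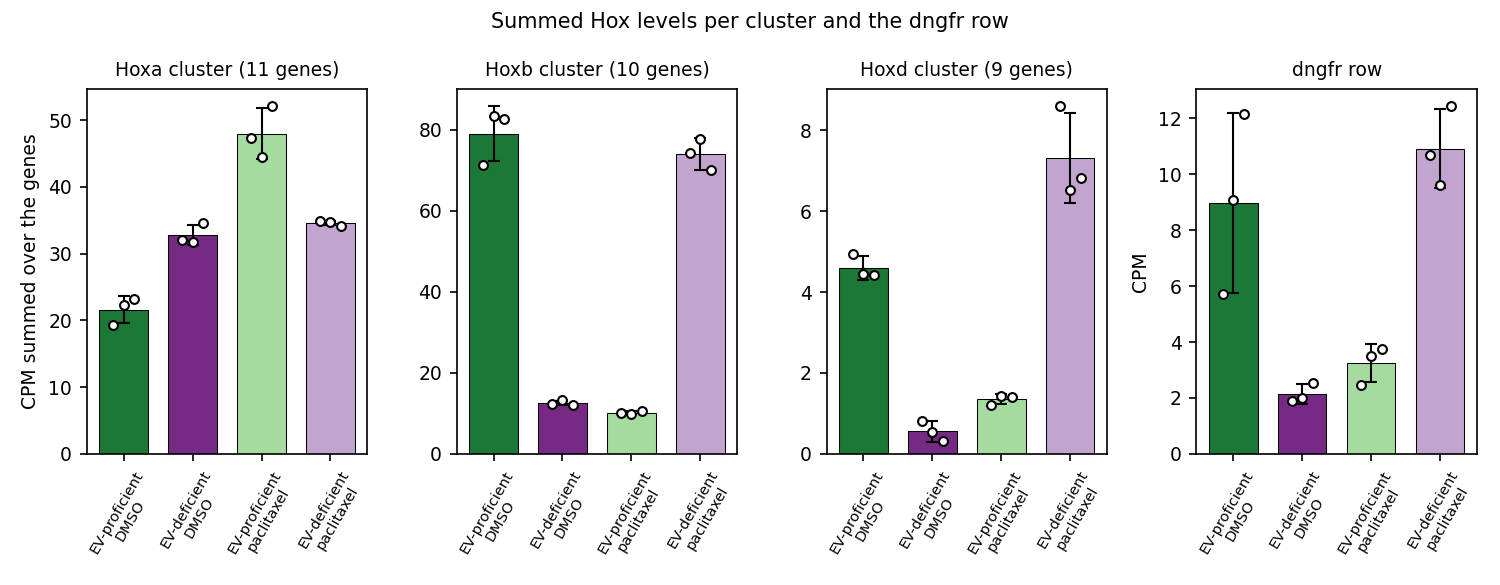
CPM summed over the genes of the Hoxa, Hoxb and Hoxd clusters, and the CPM of the added dngfr row, in the 4 groups. Bars are means of 3 libraries, error bars the SD, circles the libraries; the Hoxb and Hoxd panels and the dngfr panel share which 2 groups were high and which 2 low, while Hoxa was highest in the EV-proficient paclitaxel libraries (mean 48.0 CPM).

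Hoxb9, a posterior gene of the trunk, dominated the cluster. Its level was 41.0, 50.2 and 45.9 CPM in the EV-proficient DMSO libraries and 4.70, 4.48 and 5.34 CPM in the EV-proficient paclitaxel libraries. It was 7.44, 7.90 and 6.95 CPM in the EV-deficient DMSO libraries and 34.8, 33.1 and 33.9 CPM in the EV-deficient paclitaxel libraries. The paclitaxel effect on Hoxb9 was -3.25 ± 0.10 (log2 fold change ± SE) under the EV-proficient label and 2.19 ± 0.09 under the EV-deficient label, with no overlap of groups in either. Since this gene and Hoxb7 prompted the choice of the family, no p-value is given for them. Between EV labels, Hoxb9 was lower by 2.62 log2 units under the EV-deficient label in DMSO (-2.62 ± 0.10) and higher by 2.83 ± 0.10 in paclitaxel.

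Hoxb7, the next gene but one in the cluster and a factor studied in epithelial tumours, had 6.77, 8.56 and 8.19 CPM in the EV-proficient DMSO libraries and 1.15, 0.878 and 1.38 CPM in the EV-proficient paclitaxel libraries. It had 1.34, 1.08 and 0.877 CPM in the EV-deficient DMSO libraries and 9.72, 10.8 and 7.56 CPM in the EV-deficient paclitaxel libraries. The high groups again were EV-proficient DMSO and EV-deficient paclitaxel, and the low groups overlapped each other. Its paclitaxel effects were -2.83 ± 0.21 and 3.07 ± 0.20 (log2), and its differences between EV labels -2.82 ± 0.20 in DMSO and 3.08 ± 0.21 in paclitaxel.

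Counting all 20 tested genes, edgeR's quasi-likelihood test with Benjamini-Hochberg adjustment over 18108 genes called 16 changed by paclitaxel under the EV-proficient label, 7 higher and 9 lower, where 58.2% of all tested genes were called (31.1% higher and 27.1% lower). Without Hoxb7 and Hoxb9 these were 14 of 18, with 7 higher and 7 lower. Under the EV-deficient label 15 of 20 were called, 14 higher and 1 lower, where 62.9% of all tested genes were called (32.4% higher and 30.5% lower), and without the 2 prompting genes 13 of 18. Since most tested genes responded to the drug, the number of Hox genes called says little by itself; the direction differed by cluster. Under the EV-proficient label all 7 higher genes were Hoxa genes, and the 9 lower genes were 8 Hoxb genes and Hoxd8. Under the EV-deficient label the 14 higher genes were all 9 tested Hoxb genes, Hoxc6, Hoxd8, Hoxa2, Hoxa9 and Hoxa10, and the lower gene was Hoxa4. Hoxb2 and Hoxc6 reached the level of the low-count filter in the EV-deficient paclitaxel libraries only, which favours a call there; without them 13 of 18 were called, 12 higher and 1 lower.

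**Figure D3:**
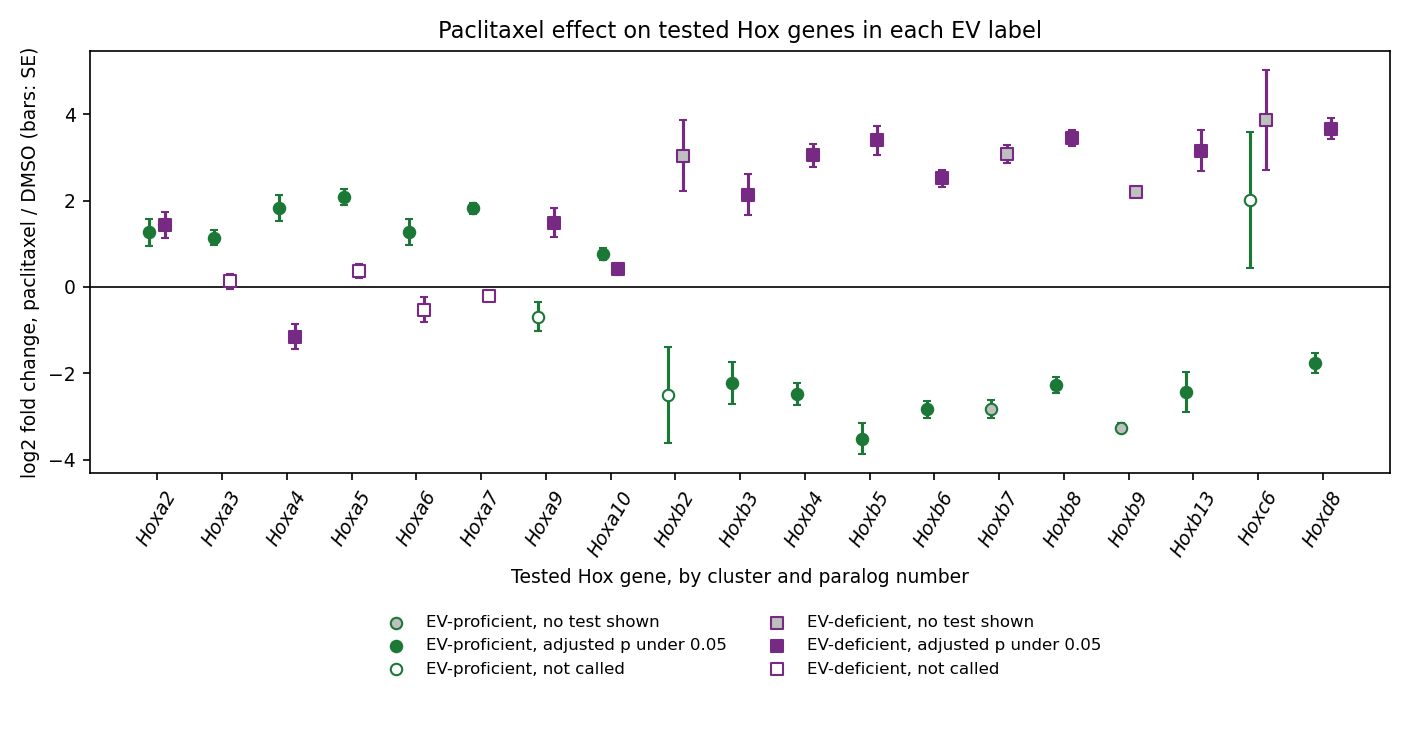
Paclitaxel effect (log2 fold change against DMSO, bars ± SE) on tested Hox genes in the libraries labelled EV-proficient (circles) and EV-deficient (squares); coloured symbols passed an adjusted p of 0.05 in edgeR's quasi-likelihood test, white ones did not, and Hoxb7 and Hoxb9, which prompted the choice of the family, are grey with no test shown, as are Hoxb2 and Hoxc6 under the EV-deficient label, since they passed the low-count filter only through that treated group. All 9 Hoxb genes and Hoxd8 lay below 0 under the first label and above 0 under the second. Hoxb2 and Hoxc6 had few counts.

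The central Hoxb genes, which pattern the neck and thorax, moved as Hoxb9 did. Hoxb8 had 6.65, 7.15 and 7.20 CPM in EV-proficient DMSO and 1.23, 1.39 and 1.86 CPM in EV-proficient paclitaxel, a change of -2.27 ± 0.18 (edgeR adjusted p = 7.0e-10). It had 0.820, 1.11 and 0.855 CPM in EV-deficient DMSO and 10.9, 10.6 and 8.74 CPM in EV-deficient paclitaxel, a change of 3.44 ± 0.18 (edgeR adjusted p = 1.0e-12). Hoxb8 was thus the only one of Hoxb6, Hoxb7, Hoxb8 and Hoxb9 whose libraries under EV-deficient paclitaxel all lay above those under EV-proficient DMSO.

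Hoxb6 had 10.0, 8.90 and 11.4 CPM in EV-proficient DMSO and 1.74, 1.58 and 0.687 CPM in EV-proficient paclitaxel (-2.84 ± 0.21, edgeR adjusted p = 1.8e-10). It had 1.66, 1.88 and 1.99 CPM in EV-deficient DMSO and 9.97, 11.6 and 9.99 CPM in EV-deficient paclitaxel (2.51 ± 0.20, edgeR adjusted p = 3.3e-10). Both treated groups stood clear of their controls, in opposite directions. Hoxb5 was at a lower level, with 1.70, 1.60 and 1.90 CPM in EV-proficient DMSO against 0.158, 0.158 and 0.121 CPM in EV-proficient paclitaxel (-3.51 ± 0.36, edgeR adjusted p = 2.7e-08). In EV-deficient DMSO Hoxb5 had 0.143, 0.208 and 0.219 CPM, and in EV-deficient paclitaxel 1.81, 2.44 and 1.77 CPM (3.39 ± 0.33, edgeR adjusted p = 1.2e-08). Its exons overlap those of the antisense gene Hoxb5os, and whether counting used strand was not given in the sources used here, so reads of the pair may be mixed.

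Hoxb4, studied for its role in blood stem cell expansion, had 3.41, 3.95 and 5.41 CPM in EV-proficient DMSO and 0.770, 0.931 and 0.485 CPM in EV-proficient paclitaxel (-2.48 ± 0.26, edgeR adjusted p = 4.0e-08). It had 0.499, 0.709 and 0.855 CPM in EV-deficient DMSO and 5.23, 6.59 and 5.10 CPM in EV-deficient paclitaxel (3.04 ± 0.26, edgeR adjusted p = 1.0e-09). The drop and the rise brought this gene to levels that overlapped those of the other EV label before drug. At the anterior end, Hoxb3 stayed under 1 CPM as a group mean, with 0.845 ± 0.311 (SD, n = 3), 0.181 ± 0.037, 0.178 ± 0.016 and 0.801 ± 0.284 CPM in EV-proficient DMSO, EV-deficient DMSO, EV-proficient paclitaxel and EV-deficient paclitaxel. Its changes were -2.21 ± 0.49 and 2.13 ± 0.47 (edgeR adjusted p = 5.2e-04 and 4.6e-04).

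Hoxb2, a hindbrain gene, had at most 3 counts in every EV-deficient DMSO and every EV-proficient paclitaxel library. Against a floor of 3 counts per library it was at least 5.78-fold higher with paclitaxel under the EV-deficient label, with 19, 14 and 24 counts in the treated libraries. It passed the low-count filter only through those libraries, so no p-value is given for that difference. Under the EV-proficient label it had 1, 4 and 6 counts without drug and 0, 2 and 0 with it, and was not called (edgeR adjusted p = 0.060). Hoxb1, the most anterior gene of the cluster, had 5 counts in 1 EV-deficient paclitaxel library and 0 in the others. Exons of Hoxb2 and Hoxb3 overlap those of the antisense gene Hoxb3os, with the same limit on strand as for Hoxb5.

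Hoxb13, a posterior gene best known from the prostate and set apart from the rest of the cluster, followed the same pattern. It had 1.39, 1.84 and 1.40 CPM in EV-proficient DMSO and 0.217, 0.141 and 0.607 CPM in EV-proficient paclitaxel (-2.43 ± 0.46, edgeR adjusted p = 1.1e-04). It had 0.214, 0.146 and 0.0658 CPM in EV-deficient DMSO and 1.01, 1.47 and 1.46 CPM in EV-deficient paclitaxel (3.15 ± 0.48, edgeR adjusted p = 6.2e-06). The direction therefore held across the gap of 74.0 kb that separates it from Hoxb9.

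**Figure D4:**
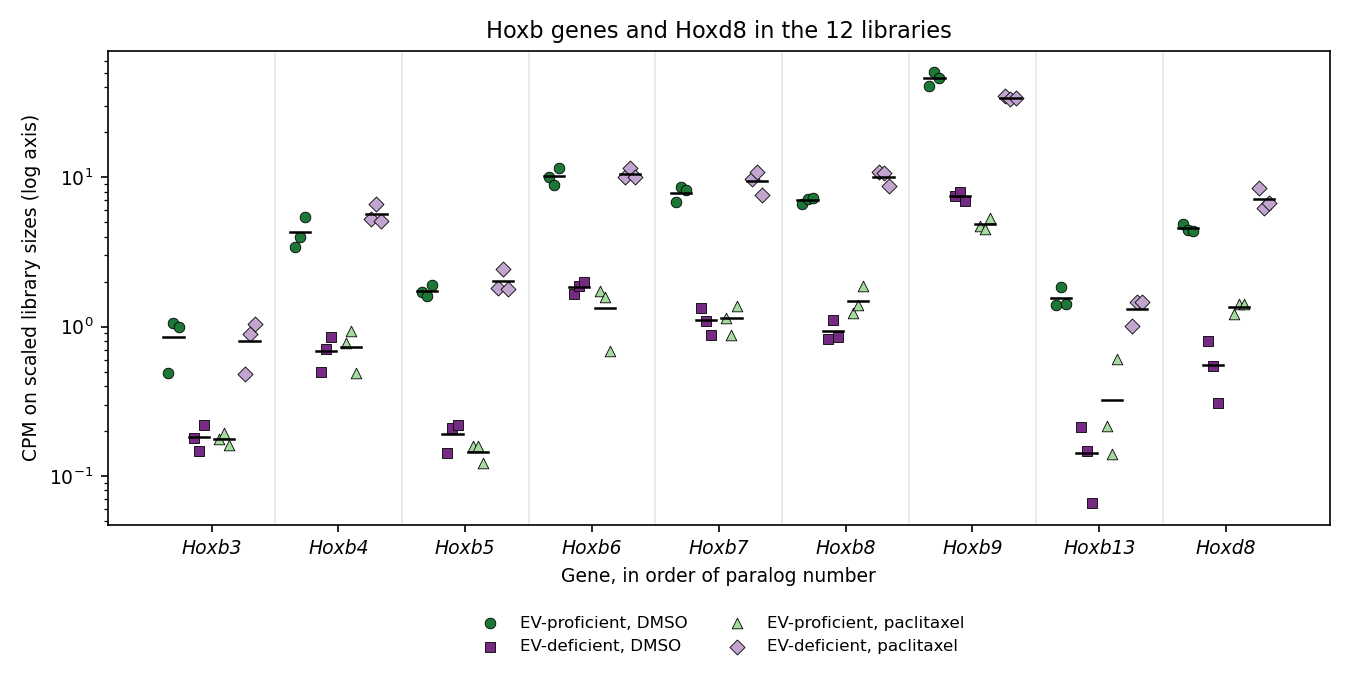
CPM (log axis) of 8 Hoxb genes and Hoxd8 in each of the 12 libraries; symbols are libraries and lines group means (n = 3). For each gene the EV-proficient DMSO (dark circles) and EV-deficient paclitaxel (diamonds) libraries lay above those of the other groups. Hoxb2 is not drawn because some libraries had 0 counts.

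Across the tested Hoxb genes the paclitaxel effect had a median of -2.51 log2 under the EV-proficient label (-2.48 with Hoxb2 at its bound) and 3.04 under the EV-deficient label, where the medians over all tested genes were 0.05 and 0.07. The groups did not overlap for 8 of 9 Hoxb genes under the EV-proficient label, all lower (29.2% of all tested genes were lower without overlap), and for 9 of 9 under the EV-deficient label, all higher (35.2%). Without Hoxb7 and Hoxb9, whose values chose the family, these were 6 of 7 and 7 of 7, and the medians were -2.48 (-2.43 with Hoxb2 at its bound) and 3.04. Without Hoxb2 alone they were 8 of 8 under each label. The other Hoxb genes are neighbours of Hoxb7 and Hoxb9, and the paclitaxel effects share their libraries with the label differences that chose the family. These counts are therefore a description, and the genes are not replicates of each other. Composition within the cluster moved less than its total. Hoxb9 made up 57.7% ± 2.4 (SD, n = 3) of the Hoxb sum in EV-proficient DMSO and 59.2% ± 1.6 in EV-deficient DMSO. With paclitaxel its share was 47.5% ± 2.4 and 46.0% ± 3.1, and the shares with drug (42.5% to 50.2%) did not overlap those without (55.5% to 60.4%). The share of Hoxb8 ran the other way, from 8.87% ± 0.39 and 7.37% ± 0.90 without drug to 14.6% ± 2.7 and 13.6% ± 1.1 with it. The share of these genes therefore differed by treatment under both labels, while the cluster's total differed by the crossing of label and treatment. No test was run on the shares.

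Per kb of exon, the order of the Hoxb genes was nearly the same in the 4 groups. In EV-proficient DMSO, Hoxb9 led with 17.8 CPM per kb, ahead of Hoxb6 (5.15) and Hoxb7 (5.08), whose libraries overlapped. Hoxb8 (2.66) and Hoxb4 (1.66) came next, apart from their neighbours, followed by Hoxb13 (0.700) and Hoxb5 (0.623), which overlapped, then Hoxb3 (0.199) and Hoxb2 (0.0283). In EV-proficient paclitaxel Hoxb9 still led with 1.88 CPM per kb, and Hoxb7 (0.734), Hoxb6 (0.680) and Hoxb8 (0.566) overlapped in sequence. In EV-deficient paclitaxel the leading values were 13.2 for Hoxb9, 6.05 for Hoxb7 and 5.35 for Hoxb6, and in EV-deficient DMSO 2.89 for Hoxb9, 0.938 for Hoxb6 and 0.712 for Hoxb7. Hoxb9 stood apart from the second gene in every group.

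Hoxd8, on another chromosome, shared the pattern. It had 4.85, 4.45 and 4.33 CPM in EV-proficient DMSO and 1.21, 1.42 and 1.42 CPM in EV-proficient paclitaxel (-1.76 ± 0.23, edgeR adjusted p = 9.7e-07). It had 0.803, 0.542 and 0.307 CPM in EV-deficient DMSO and 8.48, 6.18 and 6.71 CPM in EV-deficient paclitaxel (3.66 ± 0.25, edgeR adjusted p = 3.2e-11). Unlike Hoxb9, its EV-deficient paclitaxel libraries all lay above its EV-proficient DMSO libraries, and its EV-proficient paclitaxel libraries all above its EV-deficient DMSO libraries. Its neighbours in the cluster were nearly silent: the other Hoxd genes had at most 9 counts in a library. In the Hoxc cluster Hoxc6 was the one gene to pass the filter, with 10, 14 and 12 counts in the EV-deficient paclitaxel libraries against 2, 0 and 0 in EV-deficient DMSO, at least 3.77-fold higher. Since it passed only through that treated group, no p-value is given for the difference. In the EV-proficient libraries it had 0, 1 and 0 counts without drug and 0, 6 and 0 with it, and was not called (edgeR adjusted p = 0.29). The summed Hoxc level was 1.10, 0.432 and 0.508 CPM in EV-deficient paclitaxel and at most 0.170 CPM in any other library. Part of that sum came from Hoxc9 and Hoxc4, which had 18 and 16 counts in EV-deficient paclitaxel replicate 1 but at most 4 in any other library.

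The Hoxa cluster behaved differently. Its summed level was 19.3, 22.4 and 23.2 CPM in EV-proficient DMSO and 47.4, 44.5 and 52.1 CPM in EV-proficient paclitaxel, without overlap. It was 32.1, 31.8 and 34.6 CPM in EV-deficient DMSO and 34.9, 34.8 and 34.2 CPM in EV-deficient paclitaxel, where the ranges overlapped. The median effect of paclitaxel over the 9 tested Hoxa genes was 1.27 log2 under the EV-proficient label and 0.13 under the EV-deficient label.

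The central Hoxa genes carried most of the rise. Hoxa7 had 3.46, 4.40 and 4.86 CPM in EV-proficient DMSO and 14.1, 14.5 and 16.2 CPM in EV-proficient paclitaxel (1.82 ± 0.13, edgeR adjusted p = 1.3e-10). It had 9.49, 9.63 and 10.2 CPM in EV-deficient DMSO and 8.07, 8.97 and 8.31 CPM in EV-deficient paclitaxel (-0.21 ± 0.12, edgeR adjusted p = 0.14). The EV-deficient libraries of both treatments lay between the EV-proficient groups. Exons of Hoxa7 and Hoxa3 overlap those of the antisense gene Hoxaas3, with the same limit on strand as for Hoxb5.

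Hoxa5, a gene of lung and mammary epithelium, had 1.46, 1.65 and 1.55 CPM in EV-proficient DMSO and 7.05, 5.52 and 7.32 CPM in EV-proficient paclitaxel, the largest rise among the Hoxa genes (2.08 ± 0.18, edgeR adjusted p = 2.4e-09). In EV-deficient DMSO it had 2.96, 3.15 and 3.18 CPM and in EV-deficient paclitaxel 4.08, 3.48 and 4.43 CPM (0.37 ± 0.17, edgeR adjusted p = 0.059). The EV-deficient groups did not overlap although the test was not passed, and 4 other settings and 1 omitted library brought it past the threshold. Hoxa4 had 0.365, 0.550 and 0.644 CPM in EV-proficient DMSO and 1.56, 2.18 and 1.78 CPM in EV-proficient paclitaxel (1.83 ± 0.31, edgeR adjusted p = 2.6e-05). It fell under the EV-deficient label, from 1.68, 2.11 and 1.58 CPM to 0.726, 0.692 and 0.984 CPM (-1.15 ± 0.28, edgeR adjusted p = 0.0013). Hoxa4 was the only tested member called higher under the EV-proficient label and lower under the EV-deficient label. Hoxa6 had 0.609, 0.957 and 0.848 CPM in EV-proficient DMSO and 2.11, 2.02 and 1.66 CPM in EV-proficient paclitaxel (1.27 ± 0.31, edgeR adjusted p = 0.0013). Under the EV-deficient label Hoxa6 had 1.98, 1.40 and 1.97 CPM without drug and 1.68, 0.735 and 1.28 CPM with it, which overlapped (-0.53 ± 0.29, edgeR adjusted p = 0.12).

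The anterior Hoxa genes were mixed. Hoxa2, a gene of the second pharyngeal arch, was higher with paclitaxel under both labels, at 0.804, 0.885 and 0.556 CPM against 2.41, 1.23 and 1.82 CPM in EV-proficient cells (1.27 ± 0.32, edgeR adjusted p = 0.0016). In EV-deficient cells it went from 0.678, 0.917 and 0.526 CPM to 1.96, 1.62 and 2.15 CPM (1.43 ± 0.31, edgeR adjusted p = 3.6e-04). It was thus among the few members with a like response in both lines. Hoxa3 had 2.53, 2.82 and 3.89 CPM in EV-proficient DMSO and 6.36, 6.71 and 7.28 CPM in EV-proficient paclitaxel (1.14 ± 0.18, edgeR adjusted p = 1.2e-05). Under the EV-deficient label Hoxa3 had 4.49, 3.84 and 5.61 CPM without drug and 4.84, 5.49 and 4.90 CPM with it, which overlapped (0.13 ± 0.17, edgeR adjusted p = 0.53). Exons of Hoxa2 and Hoxa3 also overlap those of Gm28308 on the same strand, which a strand setting cannot separate.

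At the posterior end, Hoxa9, a gene studied in leukaemia, shared with Hoxb which 2 groups were high and which 2 low. It had 1.32, 0.909 and 1.35 CPM in EV-proficient DMSO and 0.830, 0.562 and 0.849 CPM in EV-proficient paclitaxel, a difference that did not pass the test (-0.69 ± 0.34, edgeR adjusted p = 0.086). It rose under the EV-deficient label, from 0.678, 0.500 and 0.592 CPM to 1.43, 2.36 and 1.23 CPM (1.49 ± 0.33, edgeR adjusted p = 4.5e-04). Hoxa10 was higher with drug under both labels, at 4.14, 4.57 and 4.86 CPM against 8.02, 7.06 and 7.93 CPM in EV-proficient cells (0.76 ± 0.14, edgeR adjusted p = 7.0e-05). In EV-deficient cells it went from 5.15, 5.23 and 5.39 CPM to 7.71, 7.22 and 6.07 CPM (0.41 ± 0.13, edgeR adjusted p = 0.011), a call lost without EV-deficient paclitaxel replicate 1 (0.32, edgeR adjusted p = 0.065) and with no low-count filter. Hoxa13, a gene of the limb tip and hindgut, had at most 1 count in any DMSO library and 7, 7 and 0 counts in EV-proficient and 8, 13 and 5 in EV-deficient paclitaxel libraries. It was too low to be tested.

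**Figure D5:**
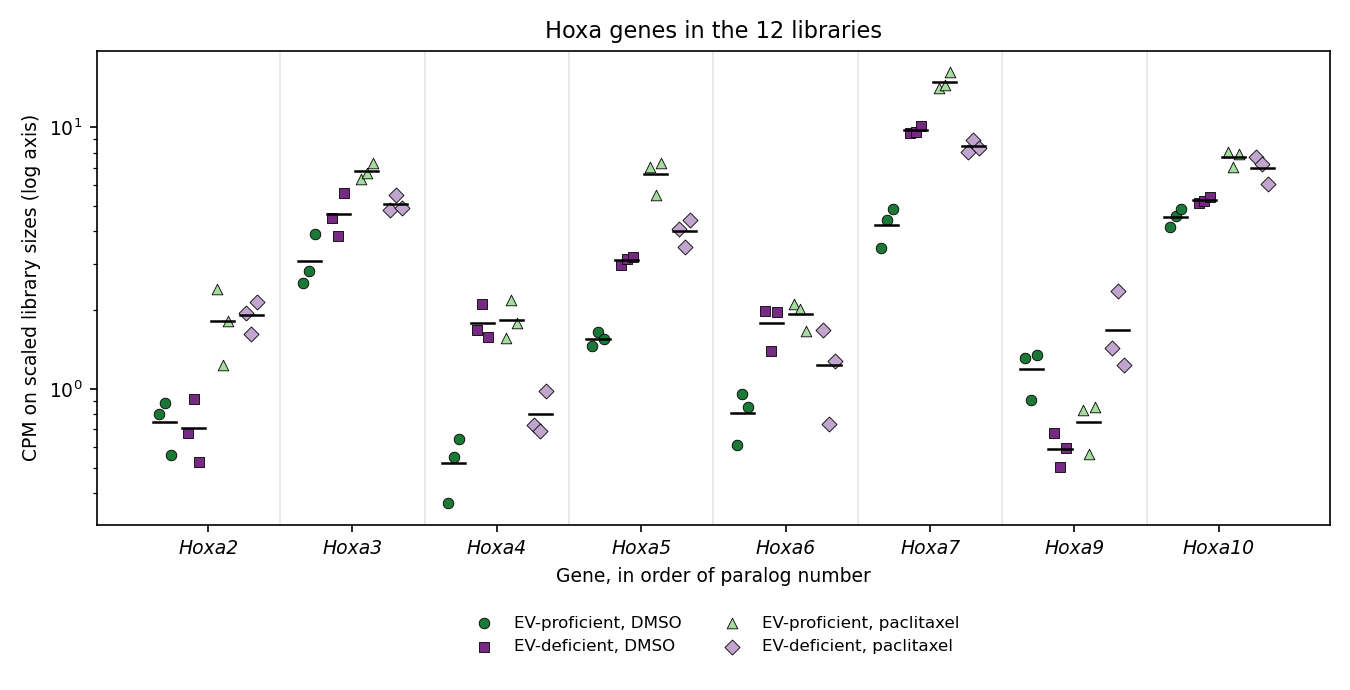
CPM (log axis) of 8 tested Hoxa genes in each of the 12 libraries; symbols are libraries and lines group means (n = 3). Hoxa3, Hoxa5 and Hoxa7 were highest in the EV-proficient paclitaxel libraries (triangles), Hoxa2 and Hoxa10 were higher in both paclitaxel groups than in both DMSO groups, and Hoxa9 was highest on average in EV-deficient paclitaxel (1.67 CPM).

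Per kb of exon, the Hoxa genes lay closer together than the Hoxb genes. In EV-proficient DMSO, Hoxa7 had 1.47 CPM per kb and overlapped Hoxa10 (1.38). Hoxa7 led in the other groups, with 3.39 in EV-deficient DMSO, 5.20 in EV-proficient paclitaxel and 2.94 in EV-deficient paclitaxel, each time apart from the second gene. Among the tested Hoxa genes Hoxa9 was last in all 4 groups, between 0.106 and 0.300 CPM per kb.

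The differences between EV labels, which the choice of the family used, are a description. The median difference between labels over the tested Hoxb genes was -2.63 log2 in DMSO and 2.88 in paclitaxel (2.83 with Hoxb2 at its bound), and over the Hoxa genes 0.60 and -0.41. Hoxd8 differed by -3.01 ± 0.25 in DMSO and by 2.41 ± 0.23 in paclitaxel. In DMSO the Hoxb genes other than Hoxb2, whose groups overlapped (-1.20), thus ran lower and Hoxa3 to Hoxa7 higher under the EV-deficient label, with overlapping groups for Hoxa3 (0.60). In paclitaxel the signs were the opposite, with small differences for Hoxa3 (-0.41) and Hoxa6 (-0.65). As a count of where each group mean lay on the log2 scale (with 0.1 CPM added), EV-proficient paclitaxel was nearer to EV-deficient DMSO than to its own control for 9 of 9 Hoxb genes, 8 of 9 Hoxa genes and Hoxd8, against 52.2% of all 18108 tested genes. EV-deficient paclitaxel was nearer to EV-proficient DMSO than to its own control for 9 of 9 Hoxb genes, 4 of 9 Hoxa genes and Hoxd8, against 55.7% of all. These counts use the same group means as the label differences and carry no test. The Hoxb counts include Hoxb7 and Hoxb9, which prompted the choice of the family. They also include Hoxb2, which passed the low-count filter only through EV-deficient paclitaxel. With at most 3 counts in each EV-deficient DMSO and EV-proficient paclitaxel library, its place depends much on the added 0.1 CPM. Each of the other tested Hoxb genes lay nearer in the same way.

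Noncoding genes of the clusters were looked up by symbol. By the level of 1 CPM in a group, Hoxaas2 and Hoxaas3 stand out, both on the antisense side of Hoxa3. Exons of both overlap those of Hoxa3, with the same limit on strand as for Hoxb5. Hoxaas2 rose with paclitaxel under both labels, from 0.921 ± 0.090 to 1.76 ± 0.20 CPM in EV-proficient cells (0.93 ± 0.27 log2, edgeR adjusted p = 0.0054) and from 0.935 ± 0.091 to 1.54 ± 0.33 CPM in EV-deficient cells (0.72 ± 0.26, edgeR adjusted p = 0.022). Hoxaas3 rose under both as well, by 0.96 ± 0.41 (edgeR adjusted p = 0.049) and 1.33 ± 0.38 (edgeR adjusted p = 0.0043). Of the 3 other noncoding genes tested, named after their values were seen, Hotairm1 passed the test under neither label (0.35 ± 0.42, edgeR adjusted p = 0.49; 0.41 ± 0.42, edgeR adjusted p = 0.41). Hoxd3os1 had 0, 7 and 0 counts in EV-deficient DMSO and 55, 44 and 50 in EV-deficient paclitaxel (4.22 ± 0.78). It reached the level of the low-count filter in the 3 EV-deficient paclitaxel libraries and in 2 EV-proficient DMSO libraries only. Its passing thus rested on that treated group, and no p-value is given for the difference. The change of Hoxd3os1 under the other label was -1.12 ± 0.75 (edgeR adjusted p = 0.21). Hoxb5os, whose reads may be mixed with those of Hoxb5 as stated above, fell by 2.58 log2 under the EV-proficient label (edgeR adjusted p = 0.0015) and rose by 2.64 under the EV-deficient label (edgeR adjusted p = 7.6e-04), with group means between 0.0896 and 0.637 CPM. Hotair, Hottip and the rows for Mir10b, Mir196b and Mir196a-2 had 0 counts, and Mir196a-1 had 19 counts in all, 8 and 11 of them in a pair of EV-deficient paclitaxel libraries; microRNA precursors are poorly kept by poly(A) selection.

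The genes known to act with or on the clusters were counted from fixed lists, over all tested genes of each list. Of 8 tested cofactors of the PBX, MEIS and PKNOX families, 5 were higher and 0 lower with paclitaxel under the EV-proficient label, and 2 higher and 1 lower under the EV-deficient label (4 higher and 1 lower with upper-quartile scaling). Pbx2, a DNA-binding partner of HOX proteins, rose under the EV-proficient label by 0.83 ± 0.10 (edgeR adjusted p = 3.7e-07), and its change under the EV-deficient label was -0.07 ± 0.10 (edgeR adjusted p = 0.55). Meis3 rose under the EV-deficient label by 1.07 ± 0.11 (edgeR adjusted p = 3.7e-08), and its change under the other label was 0.23 ± 0.11 (edgeR adjusted p = 0.089; 0.29 and 0.040 with upper-quartile scaling). Group means of Meis3 ran from 11.3 to 23.7 CPM.

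Of 11 genes of Polycomb complex PRC2, 5 were higher and 3 lower under the EV-proficient label, and 2 higher and 5 lower under the EV-deficient label. Ezh1, a histone H3K27 methyltransferase, rose under both, by 1.15 ± 0.12 (edgeR adjusted p = 5.3e-08) and 1.04 ± 0.12 (edgeR adjusted p = 1.4e-07). Of 12 genes of complex PRC1, 9 were higher and 1 lower under the EV-proficient label, and 1 higher and 7 lower under the EV-deficient label, a split that became 3 higher and 3 lower with upper-quartile scaling. Cbx6, a chromodomain subunit, rose by 0.88 ± 0.06 (edgeR adjusted p = 2.0e-10) under the EV-proficient label. Its change under the EV-deficient label was -0.18 (edgeR adjusted p = 0.017), which upper-quartile scaling brought to 0.0026 with the call lost (edgeR adjusted p = 0.97). Of 11 Trithorax-side genes with H3K27 demethylases, 3 rose and 6 fell under the EV-proficient label, and 1 rose and 8 fell under the other. Among them Kdm6b, an H3K27 demethylase, rose by 0.33 ± 0.09 (edgeR adjusted p = 0.0024) and fell by 0.79 (edgeR adjusted p = 7.4e-08), while Dot1l, an H3K79 methyltransferase, changed by -0.12 ± 0.06 (edgeR adjusted p = 0.10) and -0.90 ± 0.06 (edgeR adjusted p = 5.2e-11). The counts of all these lists are to be read beside the background of 58.2% and 62.9% of all tested genes called.

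Of 15 Cdx and retinoid genes 9 were tested, with 6 higher and 1 lower under the EV-proficient label and 3 higher and 4 lower under the EV-deficient label, a split that became 4 higher and 2 lower with upper-quartile scaling. The shares of all tested genes were 31.1% higher and 27.1% lower under the first label and 32.4% and 30.5% under the second, for this and the next lists. Rarb, a retinoic acid receptor, rose under the EV-deficient label by 2.89 ± 0.36 (edgeR adjusted p = 4.3e-07), and its change under the EV-proficient label was 0.19 ± 0.36 (edgeR adjusted p = 0.68). Aldh1a3, an enzyme that makes retinoic acid, rose under both, by 1.27 ± 0.08 (edgeR adjusted p = 9.7e-12) and 1.47 ± 0.08 (edgeR adjusted p = 7.5e-13). Of 7 genes of CTCF and cohesin, which shape chromatin loops at the clusters, 3 rose and 4 fell under the EV-proficient label, and 2 rose and 4 fell under the other. Smc1a, a cohesin subunit, fell by 0.55 (edgeR adjusted p = 9.6e-08) and by 0.89 (edgeR adjusted p = 5.4e-11). Of 12 genes that flank the clusters 10 were tested, of which 4 rose and 3 fell under the EV-proficient label, and 5 rose and 2 fell under the other. Skap1, beside Hoxb, had a change of -0.01 ± 0.16 (edgeR adjusted p = 0.94) under the EV-proficient label and 0.72 ± 0.16 (edgeR adjusted p = 4.1e-04) under the EV-deficient label. Calcoco2, also listed as flanking Hoxb, went from 0 to 0.0438 CPM in EV-deficient DMSO to 0.262 to 0.391 CPM in EV-deficient paclitaxel, while its change under the EV-proficient label did not pass the test (edgeR adjusted p = 0.86). Calcoco2 passed the low-count filter only through the EV-deficient paclitaxel libraries, so no p-value is given for that difference, which is 1 of the 5 that rose. Calcoco1, beside Hoxc, rose under both, by 2.62 ± 0.11 (edgeR adjusted p = 3.5e-14) and 1.93 ± 0.10 (edgeR adjusted p = 7.9e-13).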

How the data were processed

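Per the labels' protocols, 12 stranded libraries were made from poly(A) RNA. The authors deposited whole read counts per gene, not normalized; STAR 2.5.0a and GRCm38 are named per the submitters' processing notes, and the counting program and its strand setting are not given in the sources used here. The 2 rows added by the authors (gfp, at 0, and dngfr) stayed out of library sizes and tests, and 0 columns belonged to other samples. GENCODE M21 (GRCm38) gave positions and exon lengths for 99.5% of gene identifiers.

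Counts were analysed with edgeR 4.0.16 in R 4.3.3: filterByExpr (minimum count 10; 18108 of 35104 genes with counts), trimmed-mean scaling and a single quasi-likelihood fit to all 12 libraries in which each group had its own mean. P-values were adjusted by Benjamini-Hochberg over all tested genes, threshold 0.05. SE is the fold change over the square root of F. Groups with at most 3 counts in each library gave bounds, taken as the mean CPM of the other group over the mean CPM of 3 counts. These bounds carry no interval for counting error or for the spread between libraries. Some single genes are counted in the totals but not reported here by name. The named genes were the other members, those with 1 CPM or more in a group by library, and up to 3 called genes per list with the largest paclitaxel effects. Members, lists and rules were chosen with earlier results of these data known. Alternatives were other scalings, filters, DESeq2 1.42.0, limma-voom (limma 3.58.1), a replicate block, only the compared groups, and each library left out. On simulated counts for paclitaxel in EV-deficient cells (17442 genes), edgeR recovered 66% of genes changed 2-fold and 83.7% of those changed 4-fold, with 7 false calls. The simulation changed few genes (50 by 2-fold and 49 by 4-fold), while 62.9% of tested genes were called in the data. These rates may therefore not hold for the data.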

Additional observations from a re-analysis of the deposited data

Results flagged for a closer look

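For 12 genes every paclitaxel library of 1 EV label lay on 1 side of its controls and every paclitaxel library of the other label on the opposite side; without Hoxb7 and Hoxb9 these were 10 of 18 tested Hox genes, and the same held for 1546 of all 18108 tested genes (8.54%). No test of the difference between labels is given for these genes, since the contrast of labels chose the family. With the EV-proficient value first and the EV-deficient value second, the log2 paclitaxel effects were positive then negative for Hoxa4 (1.83 and -1.15) and Hoxa7 (1.82 and -0.21). They were negative then positive for the rest of the 12. These were Hoxa9 (-0.69 and 1.49), Hoxb3 (-2.21 and 2.13), Hoxb4 (-2.48 and 3.04), Hoxb5 (-3.51 and 3.39) and Hoxb6 (-2.84 and 2.51). The others were Hoxb7 (-2.83 and 3.07), Hoxb8 (-2.27 and 3.44), Hoxb9 (-3.25 and 2.19), Hoxb13 (-2.43 and 3.15) and Hoxd8 (-1.76 and 3.66).

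The dngfr row, which no comparison uses, had means of 8.99 CPM (EV-proficient, DMSO) and 10.9 CPM (EV-deficient, paclitaxel), against 2.15 and 3.24 CPM in the other groups. It shared with the Hoxb cluster which 2 groups were high and which 2 low; the part of this in the Hox results was not tested.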

How the results depend on the processing

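The count of Hox genes called stayed between 15 and 17 (16 in the report) for paclitaxel under the EV-proficient label and between 13 and 16 (15) under the EV-deficient label over all alternatives, and no call of a Hoxb gene or Hoxd8 was lost or turned where the gene was tested; the strict filter of 1 CPM in 3 libraries left Hoxb2 and Hoxb3 untested. With 1 library left out these counts ran from 16 to 17 and from 15 to 16. All these counts include Hoxb7 and Hoxb9, which prompted the choice of the family, and Hoxb2 and Hoxc6 where they were tested. The strict filter gave the 13, of 17 genes tested. Uncalled effects changed sign for Hoxc6 under the EV-proficient label without EV-proficient paclitaxel replicate 2 (-2.06 to 4.07 over the omitted libraries) and for Hoxa3 under the EV-deficient label without EV-deficient DMSO replicate 2 (-0.0062 to 0.27). Calls were gained by Hoxa9 (-0.73, without EV-deficient paclitaxel replicate 2) and Hoxb2 (-2.99 without EV-proficient DMSO replicate 1, -5.22 without EV-proficient paclitaxel replicate 2) under the EV-proficient label. Under the EV-deficient label they were gained by Hoxa5 (0.39 to 0.56 over 4 settings, 0.46 without EV-deficient paclitaxel replicate 2) and Hoxa6 (-0.82 without EV-deficient paclitaxel replicate 1), and Hoxa10 lost its call with no low-count filter (0.37). The cause was not tested. Upper-quartile scaling moved the median of all genes by 0.18 log2 under the EV-deficient label and its calls from 5873 higher and 5523 lower to 7339 and 4239; the Hox calls there were 15 higher and 1 lower. Replicate numbers did not pair the samples (correlations of same-numbered deviations from -0.081 to 0.097); with the replicate block the counts were 16 and 15 for paclitaxel. The fit with only the compared groups was not run for the interaction between label and drug. With no low-count filter, Hoxa13 (42 counts in all) and Hoxc4 (27 counts, 16 of them in 1 library), untested in the report, were called higher under the EV-deficient label (edgeR adjusted p = 0.0029 and 0.016). The other Hoxc and Hoxd genes outside the report's tests had 0 to 28 counts in all and were not called at this depth.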
